A study of Mus musculus with 6 samples.

Results

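The chemokine ligand genes of the mouse were read here as a family, from the protein-coding genes whose symbols are Ccl, Cxcl, Xcl or Cx3cl followed by a number. The rule gave 37 genes of the 21755 protein-coding genes on chromosomes 1 to 19 and X (GENCODE M21, mm10). A summit of a deposited ATAC-seq peak list was assigned to a gene when it lay in the gene body or within 10 kb of it. Of the 37 genes, 33 had at least 1 listed summit in at least 1 library, and 4 (Ccl19, Ccl21a, Ccl21b and Ccl27b, all on chromosome 4) had none in any library.

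ATAC-seq, in which the transposase Tn5 cuts open DNA and tags it with adapters, was carried out on white preadipocytes grown from inguinal white fat, with the strain labelled C57BL/6 for every library. There were 3 wild type (WT) libraries and 3 libraries of double knockout (DKO) cells, which lack HMGN1 and HMGN2, a pair of proteins that bind nucleosomes. All 6 libraries are of day 0, before the differentiation mixture is added, and per the methods the mice were 8 to 12 weeks old. The study addressed how loss of HMGN affects chromatin accessibility in these cells. The DKO mice are, per the study's reporting summary, a congenic line with targeted alleles of both genes. Both proteins are missing throughout a DKO animal and not from adipose cells alone, and the preadipocytes were expanded on plates rather than sorted. Nothing in the labels ties the libraries of a genotype to separate animals, so the p-values measure the spread between these libraries, which may be technical.

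Chemokines are small secreted proteins that direct the movement of leukocytes through G protein-coupled receptors. In mice many of them are encoded side by side, with neutrophil attractants of the Cxcl class on chromosome 5 and attractants of monocytes, eosinophils and other leukocytes of the Ccl class on chromosome 11. Stromal cells of adipose tissue, to which preadipocytes belong, can produce several of them when inflammatory signals act through NF-kB, and macrophages are a further known source of Ccl3, Ccl4, Ccl6 and Ccl9.

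The sequences below are shown because the windows over or beside them gave the promoter values that differed most by rank between the genotypes. Each is the part of a peak window upstream of the annotated transcription start site (TSS), read from GRCm38 (mm10), written 5′ to 3′ in the direction of the gene. Ccl3 is chr11:83649529-83649729 on the minus strand, and Cxcl2 is chr5:90903607-90903807 on the plus strand. Ccl4 is chr11:83662402-83662583 and Ccl12 is chr11:82101602-82101802, both on the plus strand. Cxcl5 is chr5:90759177-90759377 on the plus strand, and Cxcl9 is chr5:92328080-92328280 on the minus strand. Capitals mark matches, on either strand, to the motifs AP-1 (TGACTCA or TGAGTCA), NF-kB, C/EBP (TTGCNNAA), the interferon-stimulated response element ISRE (GAAANNGAAA), the TATA box (TATAAA) and TEAD (GGAATG).
Ccl3: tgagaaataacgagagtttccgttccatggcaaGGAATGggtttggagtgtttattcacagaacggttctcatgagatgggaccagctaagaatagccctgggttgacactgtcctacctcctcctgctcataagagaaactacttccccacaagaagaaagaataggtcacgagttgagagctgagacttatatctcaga
Cxcl2: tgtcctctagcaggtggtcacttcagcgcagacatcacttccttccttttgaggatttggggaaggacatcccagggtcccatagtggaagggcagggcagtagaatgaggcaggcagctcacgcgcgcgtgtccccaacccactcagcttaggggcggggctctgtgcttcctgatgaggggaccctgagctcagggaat
Ccl4: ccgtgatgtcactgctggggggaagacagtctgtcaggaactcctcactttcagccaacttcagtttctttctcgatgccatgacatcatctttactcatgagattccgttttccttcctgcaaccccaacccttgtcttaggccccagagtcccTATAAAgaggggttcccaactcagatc
Cxcl5: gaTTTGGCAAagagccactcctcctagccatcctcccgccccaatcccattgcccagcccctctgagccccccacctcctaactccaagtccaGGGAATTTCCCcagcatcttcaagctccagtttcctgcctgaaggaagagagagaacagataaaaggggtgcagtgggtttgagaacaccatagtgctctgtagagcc
Cxcl9: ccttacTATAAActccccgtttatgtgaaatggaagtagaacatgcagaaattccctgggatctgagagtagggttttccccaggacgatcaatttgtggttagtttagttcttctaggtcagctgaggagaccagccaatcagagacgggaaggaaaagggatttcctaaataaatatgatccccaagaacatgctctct
Ccl12: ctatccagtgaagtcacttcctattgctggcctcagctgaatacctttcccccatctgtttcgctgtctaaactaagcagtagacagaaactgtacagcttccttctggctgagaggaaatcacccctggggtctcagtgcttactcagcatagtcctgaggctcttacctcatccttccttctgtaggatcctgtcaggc

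Of the 6 stretches, only that of Cxcl5 held NF-kB and C/EBP matches. Its NF-kB match ran from -108 to -99 bp of the TSS on the strand of the gene, overlapped by a match 1 bp further on the other strand, and its C/EBP match from -199 to -192. Ccl4 held a TATA box from -27 to -22, Ccl3 a TEAD match from -341 to -336, and Cxcl9 a TATA box from -195 to -190. Those of Cxcl2 and Ccl12 held no match to the letters searched. These stretches end at -64 and -43 bp of the TSS, and the rest of their windows toward the TSS was not searched. The absence thus holds for the printed letters only.

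A listed summit carries a fold enrichment, which divides its pileup of Tn5 cuts by the background of the same library nearby, and a −log10 p, by which it was ranked in its own list (a rank of 100% is the smallest p). Every list was cut by its authors near 300000 lines, with 299433 to 299620 left. The lowest −log10 p that still made the list therefore varied, between 3.54 for DKO replicate 3 and 5.63 for WT replicate 3. A summit that is missing was under that limit or in a removed blacklisted region, and was not shown to be closed. The most common background, used as a measure of depth, was 2.41 to 2.51 cut sites in WT and 2.05 to 2.58 in DKO. The lowest pileups were 8 to 12, both among the summits for which a pileup was solved. The Hmgn2 promoter was listed in WT replicates 1 to 3 and was missing from the DKO lists, as the labels have it, while that of Hmgn1 was listed in all 6. Of 10 preadipocyte or stromal markers, 8 had a promoter summit in all 6 libraries, and the summed promoter fold enrichment of the list ranged from 57.3 to 64.2 in WT and from 49.0 to 63.96 in DKO.

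Where the promoter of a chemokine gene was open in these cells, it was mostly open in both genotypes. A summit within 1 kb of a TSS was listed in all 6 libraries for 15 of the 37 genes (40.5%), against 61.0% of all protein-coding genes. The 15 were Cxcl1, Cxcl2, Cxcl5, Cxcl9, Cxcl10, Cxcl12, Cxcl14, Cxcl16, Cxcl17, Cx3cl1, Ccl2, Ccl3, Ccl7, Ccl8 and Ccl25. Another 15 genes had no promoter summit in any library, among them Ccl5, Ccl17, Ccl22 and Xcl1, known from lymphoid and myeloid cells, Ccl27a and Ccl28, known from epithelia, and Ccl20 and Cxcl13. The remaining 7 were listed in some libraries. Of these, Ccl4, Ccl6, Ccl9 and Ccl12 were listed in more DKO than WT libraries (10.8% of members, 5.22% of all protein-coding genes), and Cxcl3 and Ccl24 in more WT libraries (5.41% against 3.46%).

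**Figure D1:**
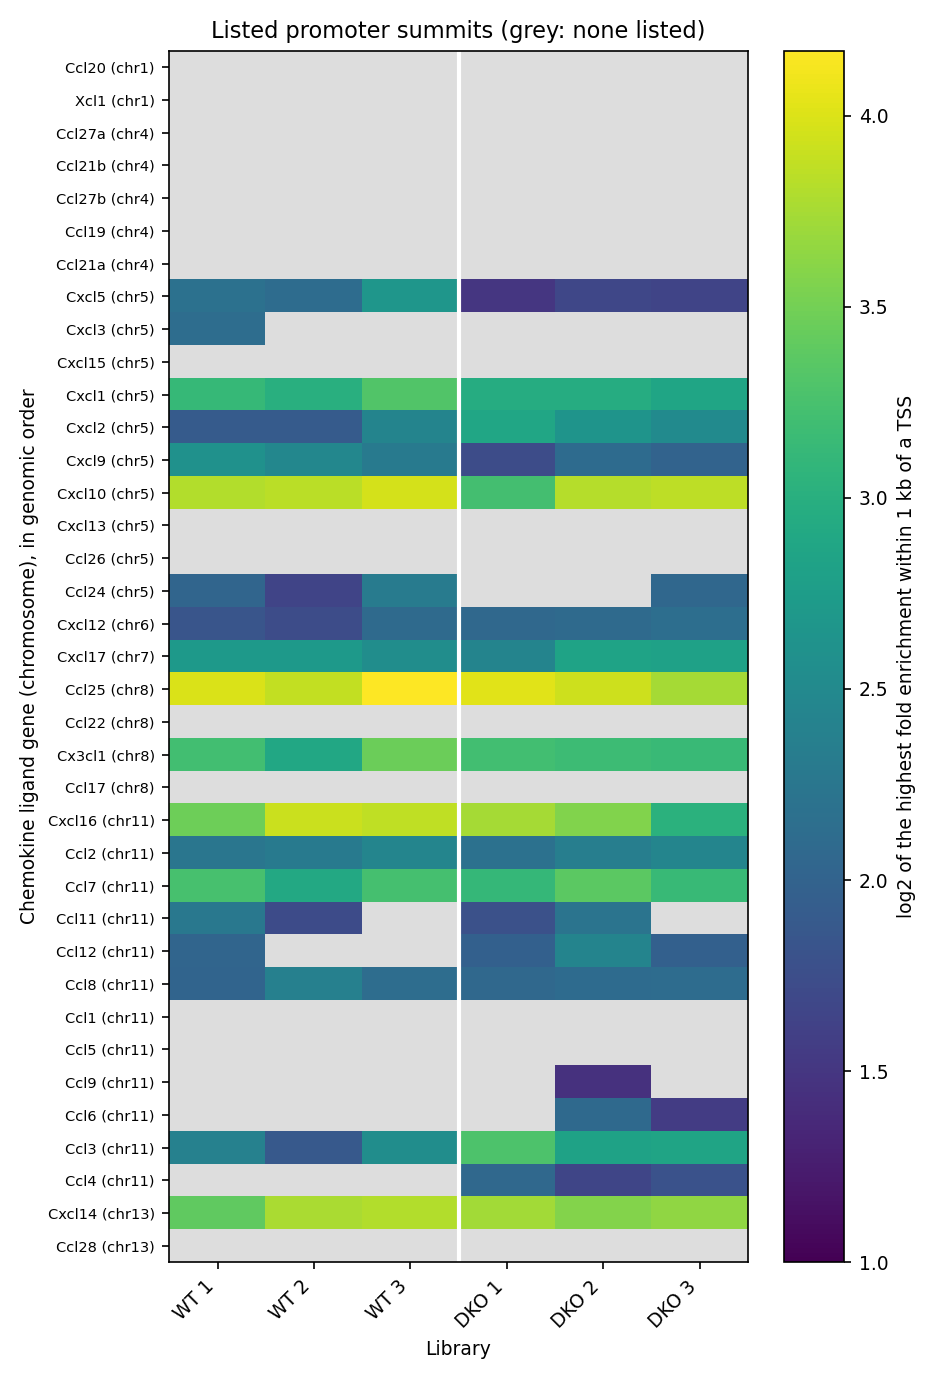
Log2 of the highest fold enrichment within 1 kb of a TSS, for each of the 37 chemokine ligand genes (rows, in genomic order) and each library (columns), with grey where no summit was listed. The 15 genes listed in all 6 libraries form unbroken coloured rows, and Ccl4 is coloured in the 3 DKO columns only.

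Among the genes with a promoter summit in all 6 libraries were Cxcl12, Cxcl14, Cx3cl1, Cxcl16 and Ccl25, none of which passed the test described next. Cxcl12, the ligand of Cxcr4 and a product of stromal cells, stood at its TSS at an enrichment of 3.58, 2.79 and 4.29 in WT and 3.69, 4.26 and 4.42 in DKO replicates 1 to 3. The DKO range began above 2 of the 3 WT values. Cxcl14, a chemokine of fibroblasts and epithelia, had 10.5, 13.7 and 14.0 in WT and 13.2, 11.9 and 12.5 in DKO. Cx3cl1, the membrane-bound ligand of Cx3cr1, had 9.24, 7.46 and 10.9 in WT and 9.27, 9.03 and 8.87 in DKO. The raw ranges of Cxcl14 and Cx3cl1 overlapped. After the normalization described next, the 3 DKO values lay above the 3 WT values at Cxcl12 (log2 difference 0.40 ± 0.28 SE) and at Cx3cl1 (0.18 ± 0.12 SE). Cxcl16, also made as a membrane protein, had 11.1, 15.1 and 14.5 in WT and 13.4, 11.8 and 8.17 in DKO, in a window that also lies over the UTR of its neighbour Zmynd15. Ccl25, which attracts cells of the thymus and gut, had the strongest promoter window of the family at 15.9, 14.7 and 18.0 in WT and 16.3, 15.2 and 13.4 in DKO, but that window lies in a UTR of Elavl1, which starts beside it.

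Windows reaching 250 bp to either side of a summit gave a common unit for the 6 lists. Of 179251 windows in the genome, 146 had their centre at a chemokine locus. Fold enrichment was compared on a log2 scale after quantile normalization with limma, adjusted over all windows. No chemokine window passed an adjusted p of 0.05, in either direction. Over the genome 0.0385% of windows were called lower and 0.0234% higher in DKO, so few calls could fall among 146. The smallest adjusted p among the chemokine windows was 0.145 (limma). At an unadjusted p under 0.05 there were 17 chemokine windows (11.6%), 16 of them higher in DKO and 1 lower, against 11.8% of all windows in either direction. In simulated data of the same layout, the fit recovered 32.5% of windows changed by 2 log2 units and 0% of those changed by 1 unit. A difference of 1 log2 unit was thus mostly below what the fit could call.

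The direction of the differences was less even than their number. In 27 of the 146 chemokine windows (18.5%) all 3 DKO values lay above all 3 WT values after normalization, against 8.76% of all windows. With only the 50000 summits of smallest p in each list it was 4 of 36 windows (11.1%), against 11.4% of all windows. In 4 of the 146 (2.74%) the DKO values lay below, against 7.67%. This count rose to 13 (8.90%) without WT replicate 3, against 12.8% of all windows, and to 11 (7.53%) without WT replicate 2, against 13.7%. The median log2 difference (DKO minus WT) was 0.09 over the chemokine windows and 0.01 over all windows. With no scaling, which moved the median of all windows to -0.14, 12 chemokine windows (8.22%) lay wholly above against 3.33% of all windows, and 11 (7.53%) wholly below against 12.5%. Within 1 kb of a TSS there were 24 chemokine windows, of which 9 (37.5%) lay wholly above and 1 (4.17%) wholly below. Of all windows within 1 kb of a protein-coding TSS, 13.7% lay wholly above and 3.75% wholly below.

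**Figure D2:**
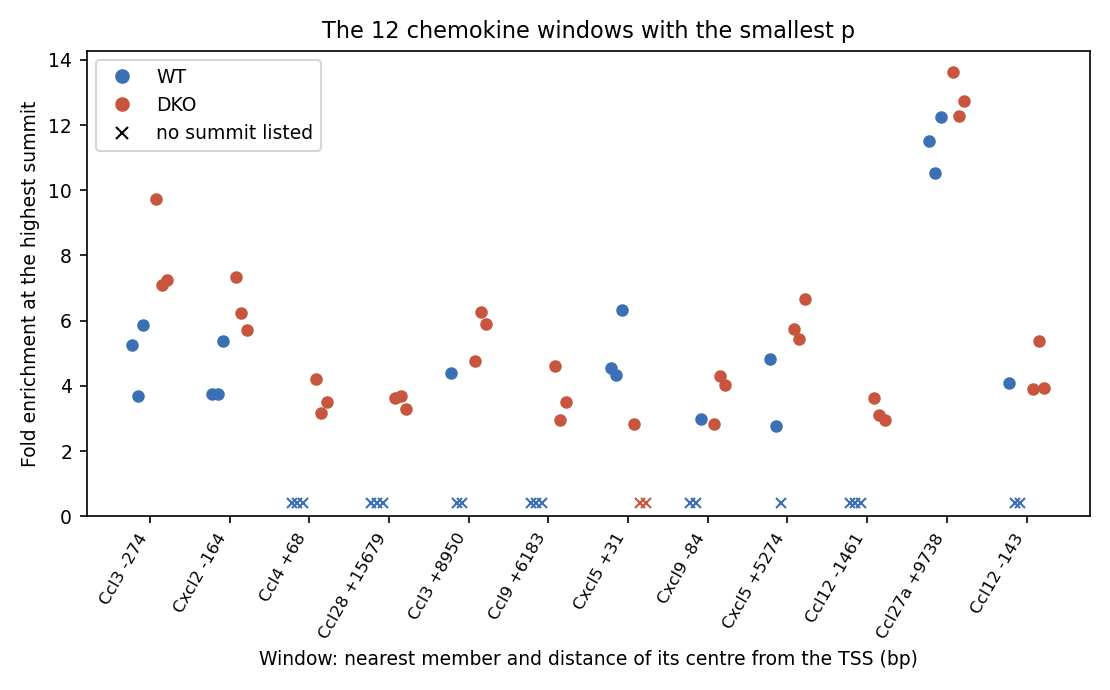
Fold enrichment per library in the 12 chemokine windows with the smallest p, from the left in order of p, with WT in blue and DKO in red and a cross where no summit was listed. Labels give the nearest gene and the distance of the window's centre from its TSS, and the DKO points are the higher ones on average except at Cxcl5 +31.

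The smallest p of the family was at the promoter of Ccl3, which encodes macrophage inflammatory protein 1 alpha, a ligand of Ccr1. Its window (chr11:83649379-83649879, intergenic, at -274 bp from the TSS) stood at an enrichment of 5.26, 3.70 and 5.87 in WT and 9.73, 7.11 and 7.24 in DKO. The lowest DKO value exceeded the highest WT value. The pileups were 17, 12 and 19 cut sites in WT and 37, 25 and 22 in DKO, and the ranks 43.5%, 25.8% and 38.8% against 79.0%, 64.1% and 71.6%. The log2 difference was 0.90 ± 0.20 (SE, n = 3 and 3) with a limma adjusted p of 0.145. When windows missing from any library were dropped, it passed, with a limma adjusted p of 0.0365. That fit called 295 windows higher and 613 lower over the genome, against 42 and 69 in the main fit. A window 8950 bp downstream of the Ccl3 TSS had 4.38 in WT replicate 1, none in the other WT libraries, and 4.75, 6.28 and 5.90 in DKO (1.48 ± 0.42 SE, limma adjusted p 0.188).

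Ccl4, which encodes macrophage inflammatory protein 1 beta, lies next to Ccl3. Its start site window (chr11:83662402-83662902, centred 68 bp into the 5′ UTR) was listed in no WT library and at 4.20, 3.18 and 3.49 in DKO, with pileups of 19, 13 and 11. These summits were low in their lists, at ranks of 40.5%, 11.04% and 28.0%. The normalized difference was 1.31 ± 0.37 (SE, limma adjusted p 0.181), and it measures height above the end of the lists rather than a fold change. Ccl9, a further attractant of myeloid cells, had a window 6183 bp downstream of its TSS (chr11:83572203-83572703) that was likewise absent from WT and stood at 4.62, 2.94 and 3.49 in DKO (1.32 ± 0.38 SE, limma adjusted p 0.189). The promoter summits of its neighbour Ccl6 were listed in DKO replicate 2 at 4.25 and DKO replicate 3 at 2.95 and in no other library.

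Ccl12, the mouse monocyte chemoattractant protein 5 and a ligand of Ccr2, had a pair of such windows. Its promoter window (chr11:82101452-82101952, at -143 bp from the TSS) had 4.09 in WT replicate 1 only and 3.91, 5.39 and 3.93 in DKO (1.13 ± 0.43 SE, limma adjusted p 0.338). As WT replicate 1 stood above DKO replicate 1, the raw values overlapped. A window at -1461 bp was listed only in DKO, at 3.63, 3.12 and 2.95 (1.14 ± 0.37 SE, limma adjusted p 0.237). Its pileups were 12, 10 and 8, at ranks of 18.8%, 0.80% and 3.23%, so it lay near the end of the lists. The lowest pileups solved in WT were 10, 10 and 12. The other DKO-only window was in an intron of Ccl28 (chr13:119639248-119639748), a mucosal chemokine, at 3.63, 3.68 and 3.28 (1.26 ± 0.36 SE, limma adjusted p 0.187). Its pileups were 12, 12 and 9, at ranks of 18.8%, 17.4% and 15.4%. In all, 4 chemokine windows (2.74%) had a summit in the 3 DKO libraries and none in WT, against 1.14% of all windows. The reverse occurred in 0 of the 146 windows at the genes, against 1.23%. In a fit whose variance prior had no mean trend, these 4 DKO-only windows passed, with limma adjusted p from 0.0132 for Ccl28 to 0.0292 for Ccl9. That fit called 2048 windows higher and 2089 lower over the genome, and the WT values of these 4 are the ends of the lists, so the passes do not add to the listing itself.

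The neighbouring monocyte and eosinophil attractants on chromosome 11 had smaller differences at their promoters. Ccl2, the main monocyte chemoattractant of stromal cells, had 4.72, 4.92 and 5.45 at its promoter in WT and 4.53, 5.13 and 5.43 in DKO, in a window that also lies in an intron of the annotated transcript Gm17268. The groups overlapped almost fully, with means of 5.03 ± 0.376 and 5.03 ± 0.456 (SD, n = 3 each). Ccl7, which encodes monocyte chemoattractant protein 3, had 9.50, 7.55 and 9.44 in WT and 8.67, 10.4 and 8.81 in DKO. Its raw values overlapped, while after normalization the DKO values lay above the WT values (0.26 ± 0.13 SE, limma adjusted p 0.458). Ccl8 was listed in all 6 libraries within 1 kb, at 4.07 to 5.21 in WT and 4.19 to 4.36 in DKO. Ccl11 (eotaxin) was listed at its promoter in WT replicates 1 and 2 and DKO replicates 1 and 2, at 3.30 to 4.84.

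On chromosome 5, the neutrophil attractants that bind Cxcr2 did not move as a group. Cxcl2 had a promoter window (chr5:90903457-90903957, intergenic, at -164 bp) with 3.76, 3.76 and 5.37 in WT and 7.35, 6.25 and 5.70 in DKO. All DKO values were above the WT values, with WT replicate 3 close to DKO replicate 3, and the pileups were 20, 19 and 32 against 40, 37 and 25. The log2 difference was 0.78 ± 0.21 (SE, limma adjusted p 0.176). Cxcl5 went the other way at its start site (chr5:90759159-90759659, centred 31 bp into the 5′ UTR), with 4.54, 4.34 and 6.32 in WT, 2.83 in DKO replicate 1 and no summit in DKO replicates 2 and 3. This difference of -1.31 ± 0.38 (SE, limma adjusted p 0.193) was the single chemokine window that was lower at an unadjusted p under 0.05. Within 1 kb of the TSS the 2 remaining DKO libraries did list Cxcl5 summits, at 3.18 and 3.13, still below every WT value. A window 5274 bp downstream of the same TSS was higher in DKO, at 4.81 and 2.76 in WT replicates 1 and 2, none in WT replicate 3, and 5.74, 5.43 and 6.65 in DKO (1.21 ± 0.39 SE, limma adjusted p 0.233).

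Cxcl1, the third neutrophil attractant of the run with a listed promoter, had 8.74, 8.03 and 9.89 at its start site in WT and 7.82, 7.82 and 7.30 in DKO. Although every raw DKO value was lower, the normalized log2 difference was -0.02 ± 0.13 (SE). A window at -521 bp had 2.98, 3.92 and 3.01 in WT and 4.48, 4.37 and 4.05 in DKO (0.76 ± 0.36 SE, limma adjusted p 0.440). Cxcl3 had a promoter summit in WT replicate 1 alone, and Cxcl15, the lung chemokine lungkine, had none.

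Between Cxcl15 and Cxcl1 lay the 1 window of these runs that was listed in WT only. It stands outside the 146 because it is 33526 bp from the body of Cxcl1, the nearest protein-coding gene (chr5:90857465-90857965), and it was singled out after its values were seen. It had 7.44, 6.32 and 6.69 in the WT libraries and no summit in any DKO library. Its log2 difference of -2.06 ± 0.33 (SE, limma adjusted p 0.0706) is measured against the ends of the DKO lists. The limma adjusted p was 0.0478 with median centring and 0.0132 without a trend in the variance prior, and 0.0792 to 0.339 under the remaining alternatives that kept the window. Over the genome, median centring called 157 windows lower and 87 higher, and the fit without a trend 2089 and 2048.

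The interferon-induced ligands of Cxcr3 showed 2 summits of opposite direction at Cxcl9 and an even promoter at Cxcl10. The Cxcl9 window at -84 bp (chr5:92327913-92328413) had no summit in WT replicates 1 and 2, 2.99 in WT replicate 3, and 2.82, 4.29 and 4.03 in DKO (1.24 ± 0.38 SE, limma adjusted p 0.211). Its window 512 bp downstream of the TSS had 6.10, 5.53 and 4.92 in WT and 3.34, 4.15 and 3.30 in DKO, and the log2 difference after normalization was -0.47 ± 0.27 (SE, limma adjusted p 0.463). Cxcl10 had one of the strongest promoters of the family, at 14.0, 14.3 and 15.6 in WT and 9.33, 14.1 and 14.5 in DKO (-0.08 ± 0.18 SE), in an intron of Art3. Only DKO replicate 1 stood apart there.

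Away from promoters, the strongest window of most genes was alike in both genotypes. The highest of all lay at -4353 bp from the Ccl5 TSS (chr11:83534621-83535121, intergenic), with 25.9, 22.0 and 28.2 in WT and 23.3, 26.6 and 26.7 in DKO. Ccl5 (RANTES) itself had no promoter summit in any library. A window in an intron of Ccl8 had 15.6, 14.6 and 14.9 in WT and 12.02, 12.1 and 12.4 in DKO, but the normalized difference was -0.14 ± 0.13 (SE). A window in a UTR of Il11ra1, 9738 bp from the Ccl27a TSS, had 11.5, 10.5 and 12.3 in WT and 13.6, 12.3 and 12.7 in DKO (0.34 ± 0.12 SE, limma adjusted p 0.276). The 4 wholly lower windows were those of Cxcl5 at its start site, of Ccl28 in an intron 8141 bp from its TSS, of Cxcl14 16630 bp downstream and of Cxcl15 10021 bp downstream. The Ccl28 window had 11.3, 11.9 and 12.1 in WT and 9.13, 8.33 and 7.87 in DKO (-0.29 ± 0.14 SE).

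Read as wholes, the chr11 Ccl runs had higher counts of listed summits in each DKO library, and the chr5 Cxcl runs overlapped. Among all protein-coding genes with a summit, 6.33% had higher counts in every DKO library and 3.45% lower. No share was computed for regions as large as these runs together or as all chemokine loci. The chr11 Ccl runs held 103, 109 and 98 listed summits in WT and 126, 115 and 119 in DKO, a difference of 16.7 in the means (two-sided exact permutation p 0.10, the smallest that 3 against 3 allows). No DKO count fell within the WT range. Counted once per interval, the difference was 6.33 (exact permutation p 0.10), and with runs split only at gaps over 2 Mb it was 17.3 (exact permutation p 0.20). The chr5 Cxcl runs held 86, 91 and 87 in WT and 79, 87 and 76 in DKO, a difference of -7.33 (exact permutation p 0.30), and the groups overlapped, DKO replicate 2 standing above WT replicate 1. It was -17.3 with runs split only at gaps over 2 Mb (exact permutation p 0.10) and -1.0 counted once per interval (exact permutation p 0.80). Over all chemokine loci there were 251, 251 and 245 summits in WT and 259, 257 and 256 in DKO, a difference of 8.33 (exact permutation p 0.10), or 4.33 counted once per interval (exact permutation p 0.50). The median rank of these summits was 53.0%, 55.5% and 55.4% in WT and 56.9%, 55.3% and 54.2% in DKO (exact permutation p 0.60). Among the 50000 lines of smallest p in each list, the difference over all loci was -4.0 (exact permutation p 0.20) and that over the chr11 runs -0.333 (exact permutation p 1.0), so the higher counts were in summits of lower rank. Over the chr5 runs it was -3.67 (exact permutation p 0.20), and the run from Cxcl5 to Cxcl2 held 13, 12 and 11 such lines in WT and 6, 11 and 9 in DKO.

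**Figure D3:**
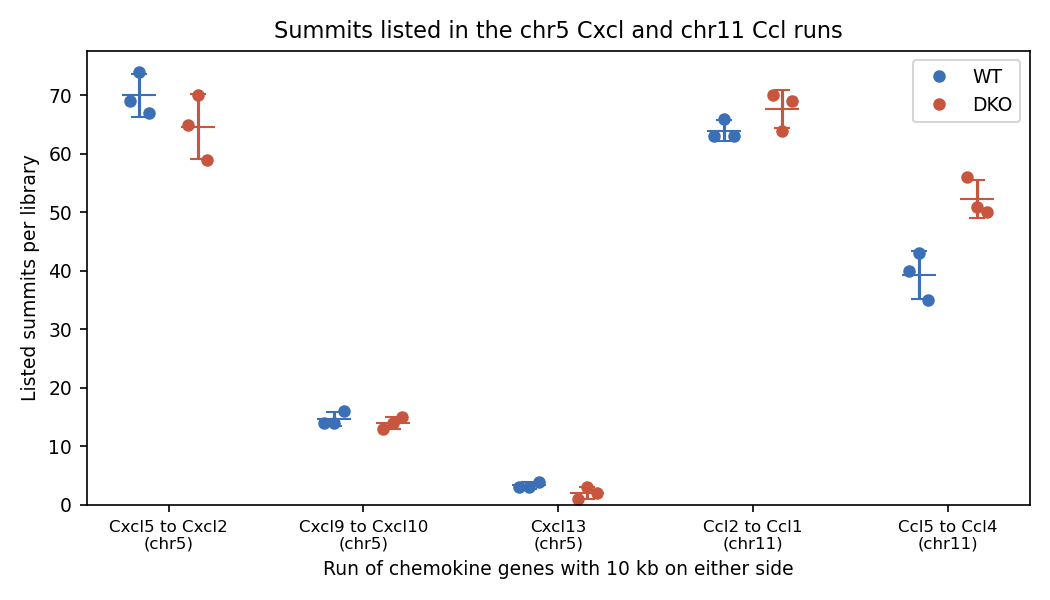
Listed summits per library (points) with the mean and SD (bars) in the 5 runs of chemokine genes on chromosomes 5 and 11, each with 10 kb on either side. DKO points lie above every WT point in the Ccl5 to Ccl4 run only, at 50 to 56 against 35 to 43.

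On chromosome 11 the difference sat in the run from Ccl5 to Ccl4 (chr11:83525778-83664683), which holds Ccl5, Ccl9, Ccl6, Ccl3 and Ccl4. This run was singled out after its values were seen. With 10 kb on either side it had 40, 43 and 35 listed summits in WT and 56, 51 and 50 in DKO (exact permutation p 0.10), while the run from Ccl2 to Ccl1 had 63, 66 and 63 against 70, 64 and 69. Counted once per interval, which can hold several summits, the difference of the Ccl5 to Ccl4 run was 4.33 in place of 13.0 (exact permutation p 0.20). Of stretches of the same length across the genome with 20 or more summits on average, 9.9% had higher counts in every DKO library. The stretches of equal length on either side had 51, 46 and 50 in WT against 49, 54 and 42 in DKO before the run, and 30, 29 and 33 against 29, 27 and 24 after it. Neither adjacent stretch separated upwards as the run did, though the next one before them did so by a small margin, at 26, 26 and 26 against 28, 28 and 28. Of the 25 windows in the run, 6 lay wholly above in DKO and 0 wholly below, against 8.76% and 7.67% of all windows. The run from Ccl2 to Ccl1 had 7 of 38 above and 0 below, and that from Cxcl5 to Cxcl2 had 8 of 36 above and 4 below, the WT-only window among them. The Ccl5 to Ccl4 run held 12, 11 and 13 lines among the 50000 of smallest p in WT and 12, 14 and 12 in DKO. There too the added summits were thus weak.

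**Figure D4:**
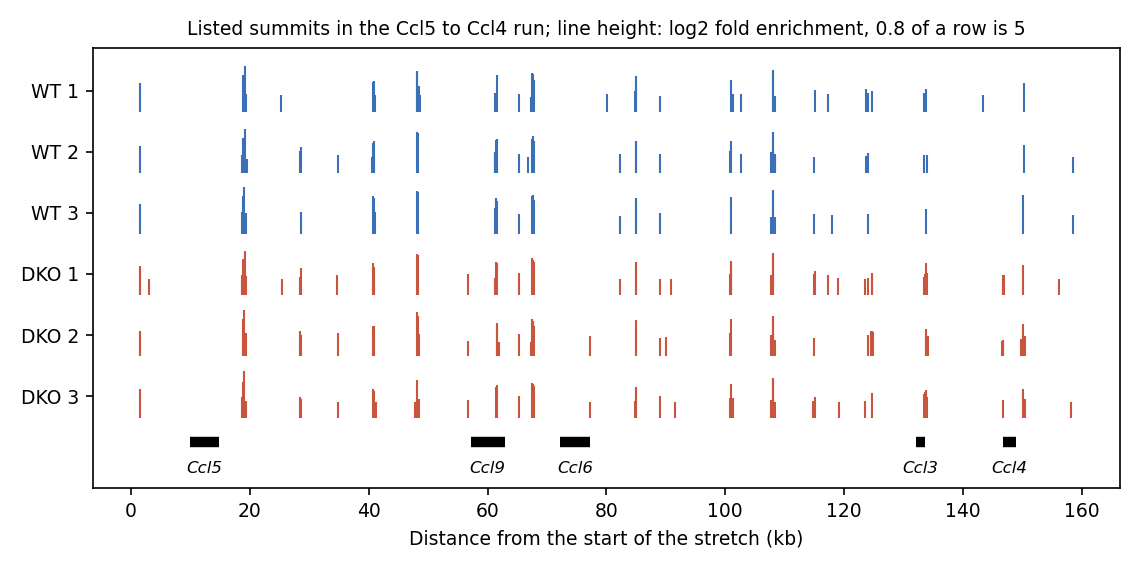
Position of every listed summit in the Ccl5 to Ccl4 run (x axis, distance in kb from the start of the stretch), with 1 row per library, line height proportional to log2 fold enrichment, and black bars for the 5 genes. The tall lines recur in all 6 rows, and a short line over the start of Ccl4 appears in the 3 DKO rows.

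Gene by gene, 3 of the 33 genes with a summit had more listed summits in every DKO library than in any WT library, and 0 had fewer. Among all protein-coding genes with a summit the shares were 6.33% and 3.45%. The 3 were Ccl3 with 6, 4 and 2 summits in WT and 9, 7 and 7 in DKO, Ccl4 with 2, 2 and 2 against 5, 6 and 4, and Ccl12 with 1, 1 and 0 against 3, 2 and 2. Counts overlapped at the other genes. For example, Cxcl14 had 13, 12 and 13 in WT and 8, 9 and 12 in DKO, Ccl2 had 14, 17 and 13 against 14, 15 and 19, and Cxcl12 had 12, 13 and 16 against 15, 15 and 16.

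Markers of macrophages and other leukocytes, read beside Ccl3, Ccl4 and Ccl12, were not alike in direction. Of the 8 markers, Lyz2, Cd68, Cd14 and Csf1r had a promoter summit in all 6 libraries, and the list held 72, 69 and 57 locus summits in WT and 83, 77 and 78 in DKO. Counts were higher in every DKO library at 2 of the 8, Spi1 (7, 9 and 7 against 14, 10 and 11) and Csf1r (11, 13 and 11 against 20, 15 and 15). Over all protein-coding genes with a summit that share was 6.33%. The Itgam promoter was listed only in DKO, at 4.19, 5.95 and 3.28. Adgre1 had no summit in any WT library and a promoter summit in DKO replicates 1 and 2, and the Ptprc promoter was listed in WT replicate 1 alone. Promoter values overlapped at Lyz2 (9.42 to 14.9 in WT, 8.15 to 9.61 in DKO) and Csf1r (3.78 to 4.46 and 3.20 to 4.20). They overlapped at Cd14 too (7.16 to 8.53 and 6.44 to 8.59). At Cd68 the DKO values were the higher ones (4.79 to 5.73 and 5.78 to 6.26). The summed promoter fold enrichment of the list ranged from 26.1 to 35.2 in WT and from 27.8 to 37.6 in DKO, so it overlapped. Of 5 lymphocyte markers, 4 had no promoter summit in any library, and the list held 18 to 23 summits in WT and 24 to 29 in DKO. The 5 endothelial markers held 75 to 87 summits in WT and 88 to 101 in DKO, with the Cdh5 promoter listed only in DKO, and the 5 epithelial markers 21 to 24 and 21 to 26. Counts were higher in every DKO library at 1 lymphocyte marker (Cd4) and 1 endothelial marker (Cdh5) too. The 10 stromal markers held 182 to 214 summits in WT and 185 to 206 in DKO. The 14 inducers of chemokine genes taken up below held 181 to 183 and 190 to 199. No share over all genes was computed for these list totals. In bulk libraries more cells of a type and more signal per cell cannot be told apart, and the part of these markers in the chemokine results was not tested.

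The receptors of the family were little listed. Of 17 chemokine receptor genes, Cxcr4, Ccr1 and Ccr10 had a promoter summit in all 6 libraries and 6 had none in any. Summit counts were higher in every DKO library at Ccr4 and Cx3cr1 and lower at Ccr2, that is at 2 and 1 of 17, where the shares over all genes were 6.33% and 3.45%. At Ccr2 that was 1 summit in each WT library and 0 in DKO. The scavenging receptors Ackr3 and Ackr4 were listed at their promoters in all 6 libraries, and Ackr1 and Ackr2 in none. Of 14 genes that induce chemokines (cytokines and factors of the NF-kB, IRF and STAT families), 12 had promoter summits in all 6. Nfkb1 had more summits in every DKO library (35, 36 and 32 against 39, 42 and 39) and Ifnb1 fewer (15, 15 and 15 against 11, 13 and 12), which is 1 of the 14 in each direction. Of the chemokine genes with other names, Cklf was listed at its promoter in all 6 libraries, Pf4 in DKO replicate 2 alone and Ppbp in none.

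In sequence, the chemokine windows held more NF-kB matches than windows at large. Within 100 bp of the centre, 14 of the 146 (9.59%) had an NF-kB match against 3.62% of all windows, and 40 (27.4%) an AP-1 match against 23.6%. C/EBP matches were found in 12.3% against 12.03%, TEAD in 15.8% against 16.3%, the TATA box in 10.3% against 8.82%, and the ISRE in 1.37% against 2.64%. Of the 27 windows wholly above in DKO, 2 held NF-kB, 4 AP-1, 3 C/EBP, 6 the TATA box, 6 TEAD and 0 the ISRE. RefSeq promoters (GRCm38.p6, 300 bp each) were matched for 27 of the 37 genes with 33 entries. Of these entries, 8 (24.2%) had an NF-kB match against 6.93% of all 32851 promoters, 10 (30.3%) a TATA box against 13.6%, and 6 (18.2%) an AP-1 match against 5.20%. These are descriptions of letters and not of bound sites, and neighbouring chemokine genes share ancestry.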

How the data were processed

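Lists of ATAC-seq peaks were analysed for 6 preadipocyte libraries at day 0, 3 per genotype. Per the submitters' processing notes, bcl2fastq 2.17, cutadapt 1.18, Bowtie2 2.3.4.3 and MACS2 were used with mm10. Per the methods and the names of the lists, the authors removed duplicates and mitochondrial reads, called summits per library at a p of 0.01, kept 300000 and removed blacklisted regions. The methods give default settings for MACS2, which differs from that p. The deposited fold enrichment is the ratio of pileup to local background, and the deposited p and q are −log10 values. Read totals were not used here.

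Pileups were solved from these values for 29944 to 29962 summits per library, and were whole in 100% of those (tolerance 0.05). Windows reached 250 bp to either side of a summit, best ranked first, and kept where at least 2 libraries had a q under 0.01. A window without a summit in a library took the lowest fold enrichment of that list. Values were quantile-normalized on the log2 scale and compared with limma 3.58.1 (R 4.3.3, trended eBayes, two-sided, Benjamini-Hochberg over 179251 windows). Counts of summits were compared by exact permutation over 10 divisions of the libraries, in Python 3.11.15. The fit was tested on simulated data. Genes and TSSs are from GENCODE M21.

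Named were each gene's promoter and strongest windows, the 12 windows of smallest p, any window called, and windows listed in 1 genotype only. Runs were split where genes were over 500 kb apart. The chemokine genes and the lists of other genes were chosen with earlier results of these data known. A receptor gene of these lists is not reported here. Alternatives were other scalings, window widths, flanks, filters, the −log10 p in place of fold enrichment, 1 line per interval, a replicate block and leaving out each library.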

Additional observations from a re-analysis of the deposited data

How the results depend on the processing

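Of 264 alternative values of 22 results, 241 kept their direction and their side of the threshold. For the counts of summits and the median rank, only the direction could change. Their exact permutation p could not fall below 0.10, or 0.25 with the replicate block, so they could not pass. Over the genome the replicate block called no window, and the fits that left out a library called at most 6 in a direction. Named windows thus had little room to change side in those fits. None of the windows at the genes was called lower under any alternative, while the WT-only window between Cxcl15 and Cxcl1 passed with median centring and without a trend. The count called higher was 1 when windows missing from any library were dropped and 4 without a trend in the variance prior. Over the genome those fits called 295 and 2048 windows higher. Of the 12 named windows at the genes, 4 were listed only in DKO, so that their direction was fixed by the values filled in for WT, and these 4 were the ones among them that passed without a trend. The causes were not tested. With only the 50000 lines of smallest p, the difference in listed summits turned to -4.0 over all loci and to -0.333 in the chr11 runs. The median rank difference of 0.866 turned to -3.78 within 1 kb of the genes. Counted once per interval, the differences were 4.33 over all loci (exact permutation p 0.50), 6.33 in the chr11 runs (exact permutation p 0.10), 4.33 in the Ccl5 to Ccl4 run (exact permutation p 0.20) and -1.0 in the chr5 runs (exact permutation p 0.80). With runs split only at gaps over 2 Mb, the chr5 difference was -17.3 (exact permutation p 0.10) and the chr11 difference 17.3 (exact permutation p 0.20).

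Windows wholly higher and wholly lower were counted after seeing the data, as was the Ccl5 to Ccl4 run. With no scaling they were 12 and 11 of 146 (3.33% and 12.5% of all windows), and without windows missing from any library 16 and 3 of 86 (9.43% and 8.22%). With the 50000 best summits they were 4 (11.1%) and 1 of 36 (11.4% and 6.51% of all windows), so the higher share at the genes was not seen there, and with windows of 150 bp to either side 31 and 7 of 181 (8.37% and 7.48%). Leaving out each library in turn gave 29 to 38 wholly higher and 6 to 13 wholly lower, against 12.2% to 14.6% and 11.3% to 13.7% of all windows, since groups of fewer libraries separate more easily.

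Replicate numbers did not pair the libraries, with correlations of 0.0054, -0.011 and -0.0071 between same-numbered deviations. With the replicate block no chemokine window was called (limma adjusted p 0.339 at the Ccl3 promoter), and the summit differences of 8.33, -7.33, 16.7 and 13.0 each had an exact permutation p of 0.25, the smallest that 3 pairs allow. The end of the lists, at pileups of 8 to 12, limits what a missing summit shows.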
